A study of Saccharomyces cerevisiae with 12 samples.

Results

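Amino acid synthesis genes under the activator Gcn4 were followed in budding yeast, Saccharomyces cerevisiae, with and without the respiratory poison sodium azide. The set held 41 genes of the 6352 in the comparison tables: GCN4 itself and 40 enzyme genes, chosen by name as genes Gcn4 is known to control, and grouped here by the amino acid they make. The choice was made with earlier results of these data known. RNA had been sequenced from 12 libraries in 6 groups of 2. The strains were BY4741 as wild type, a strain lacking SCD6 (Δscd6) and a strain lacking SBP1 (Δsbp1), each either untreated in rich YEPD medium or kept for 30 minutes in 0.5% sodium azide. Both deleted genes encode RGG-motif proteins that bind RNA and hold back its translation. BY4741 is known to carry deletions in HIS3, LEU2, MET15 and URA3, so cells of all 6 groups depend on histidine and leucine from the medium. LEU2 was not analysed here. HIS3 had counts and stays among the 29 other amino acid synthesis genes described further below, so its values there are not those of an intact gene.

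Gcn4 is a basic leucine zipper activator that binds upstream of most genes of amino acid synthesis. Its own production is governed mainly at translation: short reading frames in the leader of its mRNA hold the protein low in fed cells, and phosphorylation of the initiation factor eIF2 by the kinase Gcn2, as in amino acid starvation, lets it rise. Its targets thus come up together across pathways, a response known as general amino acid control. An mRNA level of GCN4 therefore says little about the amount of Gcn4 protein, which these data do not measure.

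The letters TGACTCA, the preferred Gcn4 site, were searched on both strands in the 500 bases before each start codon of the RefSeq R64 genome, the comparison tables giving no coordinates of their own. They were present upstream of 26 of the 41 genes (63.4%), against 236 of 5754 genes in the genome (4.10%). The shorter core TGACTC, which the purine and histidine activator Bas1 can also bind and which lies within the full site, was upstream of 31 of the 41 (75.6%) against 13.0% of all genes. A match is a description of the letters, not evidence of binding. The set was chosen as known Gcn4 targets, so its high share is no independent result. The sites of 8 genes whose mRNA fell with azide in all 3 strains are printed first, and ILV5, the gene with the largest fall, has a pair. The full site does not set the falling genes apart. It was found in 61.5% of the 13 genes that fell in all 3 strains and in 64.3% of the other 28. Capitals mark the site, the sequence runs 5′ to 3′ along the strand of the gene, and in HIS1 and HIS7 the site lies in the reverse orientation and reads TGAGTCA.
HIS1 (chrV:265953-265979, minus strand): agcttccaagTGAGTCAcctctaccgt
HIS4 (chrIII:68516-68542, minus strand): ccatgcacagTGACTCAcgttttttta
HIS7 (chrII:716680-716706, minus strand): aaaaaaaaatTGAGTCAtatcgtagct
LYS2 (chrII:474104-474130, minus strand): ttttcgcgtgTGACTCAatgtcgaaat
ILV5, far site (chrXII:839548-839574, minus strand): tggctgtcagTGACTCAtccgcgtttc
ILV5, near site (chrXII:839377-839403, minus strand): tgacctaactTGACTCAatggctttta
ILV3 (chrX:466327-466353, minus strand): cctctccagaTGACTCAgtaatatagt
LEU9 (chrXV:522760-522786, plus strand): tcgtagtgaaTGACTCAtatttttcca
ARO1 (chrIV:704251-704277, plus strand): gtcatgcataTGACTCAtcccgaacat

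Genes whose mRNA rose with azide in at least 1 strain hold the same letters in 3 of 5 cases, shown for comparison with those above. LYS20 and SER3, the other two, have neither the full site nor the core in the window.
CPA1 (chrXV:882405-882431, plus strand): gaagggtgttTGACTCAtcatcgcatc
ARG8 (chrXV:58569-58595, plus strand): gctcgctatgTGACTCActtaaagtac
LEU1 (chrVII:478937-478963, minus strand): ttactctagaTGACTCAgtttagtctg
The near site of ILV5 lies 133 bases before its start codon, that of HIS4 192 bases and that of LEU9 250 bases. The CPA1 site lies 477 bases before its start codon, and the short reading frame YOR302W, which encodes the arginine attenuator peptide, lies between them.

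The data were the authors' own comparisons, so each value below rests on a group of 2 libraries and no value per library was used here. Separate cultures are not named in the labels, so a p-value here reflects the spread of a pair of libraries that may be technical repeats. The words rose and fell are kept for an authors' adjusted p under 0.05, adjusted by Benjamini-Hochberg over all 6352 genes. Errors are the standard errors that a log2 fold change and its p-value imply, with a median of 0.22 over the 41 genes and 7 comparisons and a range from 0.19 to 0.47. Levels are group means in normalised read counts, rebuilt from the authors' mean over all libraries and their fold changes; they are relative to the other RNA of a library, so less mRNA per cell and a change in the rest of the RNA cannot be told apart. As a check of the labels, SCD6 in untreated Δscd6 cells had 1.3% of its wild type value in the authors' deposited tables, and SBP1 in untreated Δsbp1 cells 0.3%.

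A larger share of the set than of all genes fell with azide in every strain, on the authors' scaling. In the wild type 17 of the 41 genes fell and 3 rose by the authors' deposited tables, against 20.6% of all genes falling and 21.3% rising. In Δscd6 cells 18 fell and 1 rose, where 20.4% of all genes fell and 22.1% rose. In Δsbp1 cells 26 fell and 3 rose, with 27.4% of all genes falling and 27.5% rising. The median log2 change of the 41 genes was -0.33 in the wild type, -0.49 in Δscd6 and -0.81 in Δsbp1, while that of all genes was -0.02 in each strain. The falls came to 41.5%, 43.9% and 63.4% of the set.

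The same 13 genes fell in all 3 strains: HIS1, HIS4 and HIS7 of histidine synthesis, LYS2, LYS4 and LYS9 of lysine synthesis, ILV1, ILV2, ILV3, ILV5 and LEU9 of the branched chain, and ARO1 and TRP4 of the aromatic pathway. Over all genes 727 (11.4%) did so. A further 8 fell in 2 strains and 6 in 1, 5 rose in at least 1 strain, and 9 passed the test in none. None of the 41 rose in all 3 strains, and none rose in one strain and fell in another. The shares of all genes with these other patterns are not given here, so these counts do not set the 41 apart. The calls lean on the scaling. The rebuilt group means summed to less after azide, by 0.15 in the wild type, 0.39 in Δscd6 and 0.28 in Δsbp1 as log2 ratios. When all groups were scaled to equal totals, 12 genes were lower and 4 higher in the wild type, 4 lower and 5 higher in Δscd6, and 22 lower and 7 higher in Δsbp1. On that scaling LYS4, ILV1 and ILV5 were lower in all 3 strains, and ARG8 and SER3 higher in all 3. The scaling moves every gene of a comparison by the same amount, and the shares of all genes on it are not given here. The rescaled counts therefore do not place the set against all genes.

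**Figure D1:**
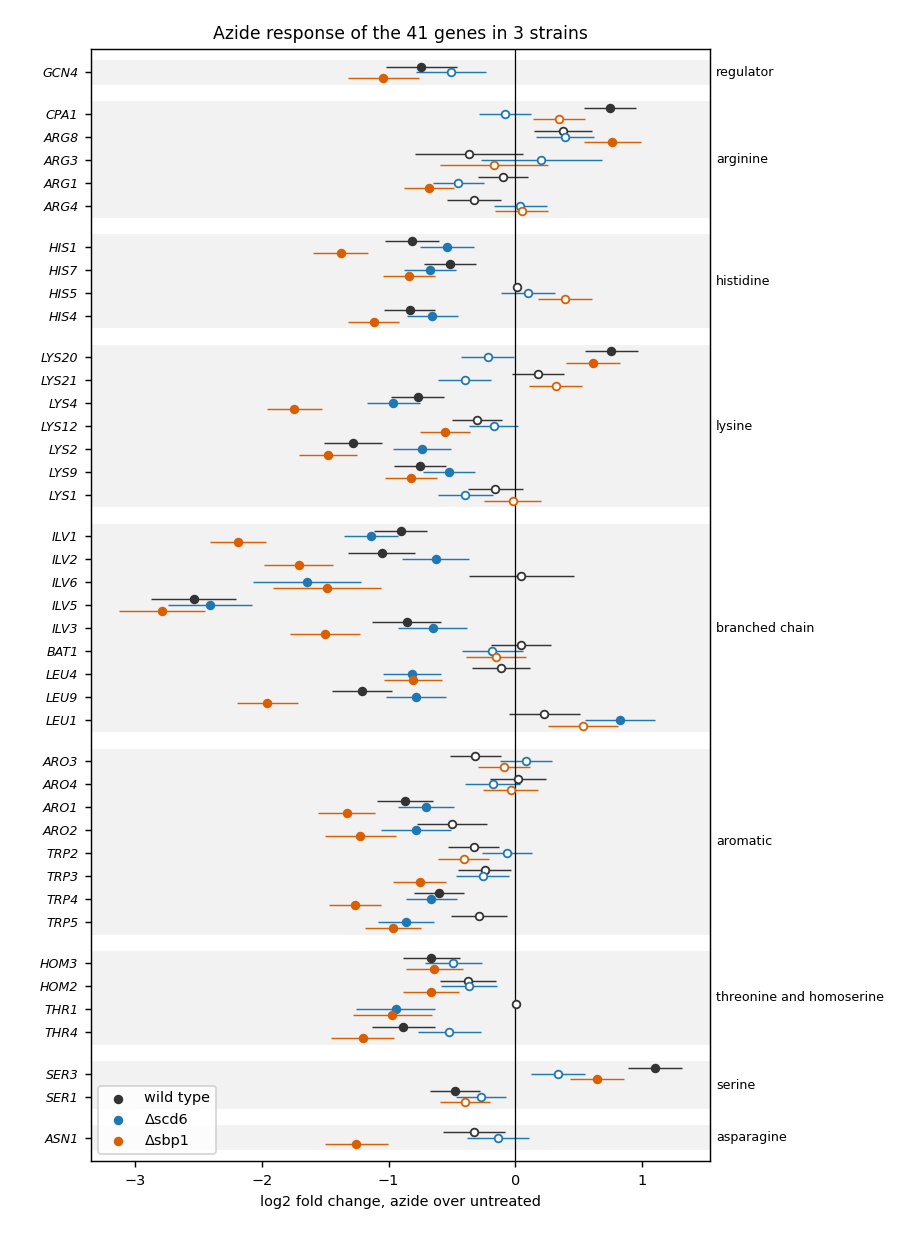
Log2 fold change with azide (horizontal axis) of each of the 41 genes (vertical axis, grouped by pathway) in the wild type, Δscd6 and Δsbp1, from the authors' deposited tables. Filled points passed an adjusted p under 0.05, open points did not, bars are the implied standard error, and HIS5 and THR1 have no bar in the wild type because their change was under 0.02. ILV5 lies farthest to the left in each strain, and SER3, LYS20 and CPA1 lie to the right of 0 in the wild type.

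GCN4 mRNA was itself abundant and fell. Its rebuilt level was 14564 normalised counts in wild type, 14009 in Δscd6 and 15544 in Δsbp1 without azide, and 8720, 9862 and 7549 in azide in the same order. The 3 untreated levels lie within a narrow range and all 3 azide levels lie below it. In the authors' deposited tables its log2 change with azide was -0.74 in the wild type (implied standard error 0.28, adjusted p = 0.022) and -1.04 in Δsbp1 (0.28, adjusted p = 0.00062). In Δscd6 it was -0.51 and did not pass (adjusted p = 0.13). Scaled to equal totals, the fall of GCN4 passed in Δsbp1 and not in the wild type.

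In branched chain synthesis 5 of 9 genes fell in the wild type, 7 in Δscd6 and 7 in Δsbp1 by the authors' deposited tables, and 1 rose, in Δscd6. In the same order 41.5%, 43.9% and 63.4% of the whole set fell, and 20.6%, 20.4% and 27.4% of all genes. In Δscd6 22.1% of all genes rose. ILV5, acetohydroxyacid reductoisomerase, was the most abundant enzyme gene of the set by count, at 39177 normalised counts in untreated wild type, 47602 in Δscd6 and 37012 in Δsbp1. In azide the rebuilt levels were 6750, 8975 and 5364, all far below every untreated level. Its log2 change in the authors' deposited tables was -2.54 (implied standard error 0.33, adjusted p = 8.0e-13), -2.41 (adjusted p = 1.3e-11) and -2.79 (adjusted p = 2.7e-15), the lowest value of the 41 genes in each strain.

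ILV1, threonine deaminase, which commits threonine to isoleucine, went from 6831 to 3648 normalised counts in the wild type, from 8671 to 3941 in Δscd6 and from 7221 to 1585 in Δsbp1. The untreated levels ran from 6831 to 8671, and the azide level of Δsbp1 was under that of the other two strains. The log2 changes in the authors' deposited tables were -0.91, -1.14 and -2.19 (adjusted p = 0.00012, 1.0e-06 and 9.2e-22). ILV2, the catalytic subunit of acetolactate synthase, was at -1.05, -0.63 and -1.71, and ILV3, dihydroxyacid dehydratase, at -0.86, -0.65 and -1.50, all past the test in the authors' deposited tables. ILV6, the regulatory subunit of acetolactate synthase, was at 0.05 in the wild type (adjusted p = 0.94), and fell in the deletion strains, with -1.65 in Δscd6 (adjusted p = 0.00058) and -1.48 in Δsbp1 (adjusted p = 0.0014), by the authors' deposited tables. The rebuilt untreated level of ILV6 was 27279 normalised counts in Δscd6 against 11398 in the wild type and 12815 in Δsbp1. Its fall in Δscd6 thus started from a higher rebuilt level, though that untreated difference from the wild type did not pass the authors' test. ILV6 also had one of the larger implied standard errors, 0.42 in the wild type.

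The first step from the branched chain into leucine is shared by a pair of isopropylmalate synthases. LEU9, the minor enzyme, fell in all 3 strains by the authors' deposited tables, with log2 changes of -1.21, -0.78 and -1.96 (adjusted p = 3.0e-06, 0.0033 and 1.7e-14). LEU4, the main enzyme, was at -0.11 in the wild type (adjusted p = 0.72) and fell by 0.81 in either deletion strain in the authors' deposited tables. In Δscd6 the fall of LEU4 ran from 14224 normalised counts, above the 8416 of untreated wild type, to 8096, near the 7788 of azide-treated wild type. The coding sequences of LEU4 and LEU9 are 76.8% identical and share no identical stretch of 50 bases. LEU1, isopropylmalate isomerase, which takes the next step, rose in Δscd6 by 0.83 (adjusted p = 0.010) and was at 0.23 in the wild type and 0.53 in Δsbp1, neither past the test, in the authors' deposited tables. BAT1, the mitochondrial branched chain aminotransferase, did not pass in any strain, with values from -0.18 to 0.05 in the authors' deposited tables.

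Of the 4 histidine genes in the set, HIS1, HIS4 and HIS7 fell in each strain, where 11.4% of all genes did so. HIS4, whose product carries out 3 activities of the pathway, went from 6071 to 3406 normalised counts in the wild type, from 5828 to 3704 in Δscd6 and from 5917 to 2727 in Δsbp1. Untreated levels of HIS4 were within a few percent of each other, and every azide level was well below them. In the authors' deposited tables the log2 changes of HIS4 were -0.83, -0.65 and -1.12 (adjusted p = 0.00020, 0.0043 and 2.3e-07). HIS1, which catalyses the first step, was at -0.81, -0.54 and -1.38, and HIS7, imidazole glycerol phosphate synthase, at -0.52, -0.68 and -0.84, all past the test in the authors' deposited tables. HIS5, the aminotransferase that makes histidinol phosphate, was at 0.01, 0.10 and 0.39 and passed in no strain in the authors' deposited tables, and its window holds the same full site as the others.

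Of the 7 lysine genes in the set, LYS2, LYS4 and LYS9 fell in all 3 strains, where 11.4% of all genes did so. LYS20 and LYS21 encode homocitrate synthase isozymes, which open the pathway, and their mRNAs did not fall in any strain. LYS20 stood at 4326 normalised counts in untreated wild type and 7316 in azide, at 4925 and 4234 in Δscd6, and at 2908 and 4451 in Δsbp1. The azide level was the higher one in the wild type and Δsbp1, and the lower one in Δscd6. LYS20 rose by 0.76 in the wild type (implied standard error 0.21, adjusted p = 0.0015) and by 0.61 in Δsbp1 (adjusted p = 0.0089) and was at -0.22 in Δscd6 (adjusted p = 0.42), by the authors' deposited tables. LYS21 gave 0.18, -0.40 and 0.32, none past the test, in the authors' deposited tables. The pair is 88.1% identical in coding sequence and 37.8% of the 50-base windows of LYS20 occur in LYS21, so how the counting divided shared reads could move both values.

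LYS4, homoaconitase, was at -0.77, -0.96 and -1.74 (adjusted p = 0.0010, 3.7e-05 and 1.2e-14) in the wild type, Δscd6 and Δsbp1 in the authors' deposited tables. LYS2, the aminoadipate reductase, was at -1.28, -0.74 and -1.48, and LYS9, the saccharopine dehydrogenase that forms saccharopine, at -0.76, -0.52 and -0.82, all past the test in the authors' deposited tables. LYS12, homoisocitrate dehydrogenase, fell in Δsbp1, by 0.55 (adjusted p = 0.011), and LYS1, which releases lysine in the last step, passed in no strain, its values in the authors' deposited tables running from -0.40 to -0.02.

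At the entry to the aromatic pathway neither gene passed. ARO3 and ARO4, the DAHP synthases inhibited by phenylalanine and by tyrosine, passed in no strain, with log2 changes between -0.32 and 0.08 in the authors' deposited tables. ARO1, the pentafunctional enzyme that builds most of the shikimate route, went from 3145 to 1718 normalised counts in the wild type, from 2766 to 1698 in Δscd6 and from 2840 to 1129 in Δsbp1. The azide levels of ARO1 were all under the lowest untreated level, and its log2 changes were -0.87, -0.70 and -1.33 (adjusted p = 0.00040, 0.0052 and 2.0e-08) in the authors' deposited tables. ARO2, chorismate synthase, was at -0.50 in the wild type (adjusted p = 0.13) and fell by 0.78 in Δscd6 and 1.22 in Δsbp1 in the authors' deposited tables. On the tryptophan branch TRP4, anthranilate phosphoribosyltransferase, fell in all 3 strains (-0.60, -0.66 and -1.26), TRP5, tryptophan synthase, in both deletion strains (-0.86 and -0.96), and TRP3 in Δsbp1 (-0.76), by the authors' deposited tables. TRP2, which encodes anthranilate synthase with Trp3, passed in none, its values in the authors' deposited tables running from -0.41 to -0.07.

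Genes of the aspartate family passed in some strains and not in others. THR4, threonine synthase, fell in the wild type by 0.88 (adjusted p = 0.0016) and in Δsbp1 by 1.21 (adjusted p = 7.4e-06) and was at -0.52 in Δscd6 (adjusted p = 0.076), in the authors' deposited tables. HOM3, aspartate kinase, fell in the wild type and Δsbp1 (-0.66 and -0.64) and HOM2, aspartate semialdehyde dehydrogenase, in Δsbp1 (-0.66), by the authors' deposited tables. THR1, homoserine kinase, was at 0.01 in the wild type and fell in Δscd6 (-0.94, adjusted p = 0.0081) and Δsbp1 (-0.97, adjusted p = 0.0046) in the authors' deposited tables. Its untreated level was 20439 normalised counts in Δscd6 against 12238 in Δsbp1 and 10795 in the wild type, and its azide level was 10840 in the wild type, 10624 in Δscd6 and 6245 in Δsbp1. The rebuilt level of THR1 in Δscd6 thus ran from above that of the untreated wild type to near that of the azide-treated wild type. The untreated difference between these strains did not pass the authors' test.

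ASN1, one of the asparagine synthetases, went from 11442 to 9147 normalised counts in the wild type, from 9223 to 8394 in Δscd6 and from 9628 to 4037 in Δsbp1. The azide level of Δsbp1 stood apart from the other 5 levels. By the authors' deposited tables ASN1 fell in Δsbp1 with a log2 change of -1.25 (adjusted p = 2.3e-06) and was at -0.32 (adjusted p = 0.29) and -0.14 (adjusted p = 0.69) in the wild type and Δscd6.

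**Figure D2:**
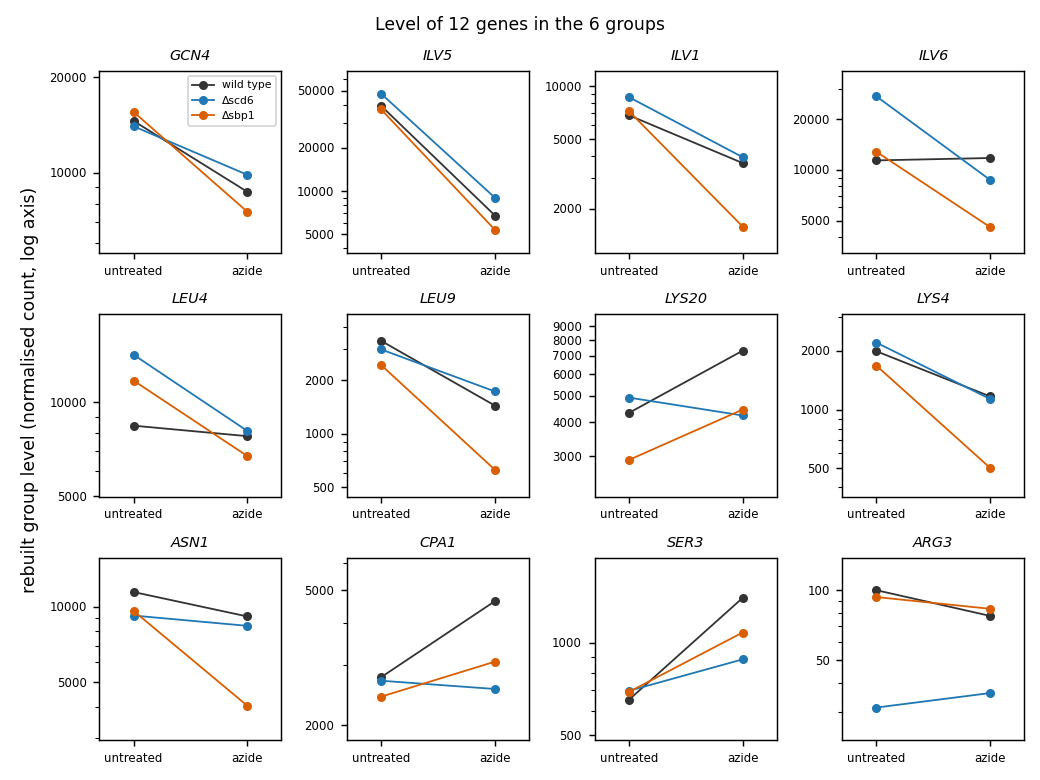
Rebuilt group levels in normalised read counts (vertical axis, logarithmic, with its own range in each panel) of 12 genes in the 3 strains, untreated and in azide. Each point is 1 rebuilt mean of a group of 2 libraries and has no error bar because no value per library was used; ILV5 drops in every strain, and ILV1 and ASN1 are lowest in Δsbp1 in azide.

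Arginine and serine genes held 3 of the 5 genes that rose, CPA1, ARG8 and SER3. CPA1, the small subunit of the carbamoyl phosphate synthetase of the arginine pathway, went from 2770 to 4642 normalised counts in the wild type, from 2704 to 2556 in Δscd6 and from 2426 to 3078 in Δsbp1. The azide level of the wild type was the highest of the 6. CPA1 rose in the wild type by 0.74 (adjusted p = 0.0012) and was at -0.08 in Δscd6 (adjusted p = 0.78) and 0.34 in Δsbp1 (adjusted p = 0.14), in the authors' deposited tables. The leader reading frame YOR302W, counted as a gene of its own, rose in the wild type by 1.01 (adjusted p = 0.0034) and in Δsbp1 by 0.92 (adjusted p = 0.0090) and was at 0.64 in Δscd6 (adjusted p = 0.087), in the authors' deposited tables.

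ARG8, acetylornithine aminotransferase, was positive in each strain and rose in Δsbp1 (0.77, adjusted p = 0.0021), while ARG1, argininosuccinate synthetase, fell there (-0.68, adjusted p = 0.0017), in the authors' deposited tables. ARG4, argininosuccinate lyase, and ARG3, ornithine carbamoyltransferase, passed in no strain. ARG3 was the least abundant of the 41 genes, with a mean of 70.3 normalised counts in the authors' deposited tables, and had the widest implied standard errors.

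SER3, a phosphoglycerate dehydrogenase that starts serine synthesis, had the largest rise of the set in the wild type. Its levels were 652 untreated and 1398 in azide in the wild type, 698 and 883 in Δscd6, and 692 and 1079 in Δsbp1. Untreated levels of SER3 were close together and each azide level was above them. By the authors' deposited tables SER3 rose by 1.10 in the wild type (adjusted p = 2.3e-06) and by 0.64 in Δsbp1 (adjusted p = 0.0063) and was at 0.34 in Δscd6 (adjusted p = 0.19). SER3 overlaps a noncoding gene in the R64 annotation, the only one of the 41 with such an overlap. How reads of the overlap were counted is not stated in the labels. SER1, phosphoserine aminotransferase, fell in the wild type by 0.48 (adjusted p = 0.038) and was negative and short of the test in the deletion strains, in the authors' deposited tables.

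Without azide few of the genes passed the test between strains. Among untreated Δscd6 cells 1 of the 41 genes was higher and 1 lower than in the wild type, where 1.45% of all genes were higher and 1.07% lower. These were LEU4, at 0.76 (implied standard error 0.23, adjusted p = 0.041), and the scarce ARG3, at -1.67 (implied standard error 0.46, adjusted p = 0.021), in the authors' deposited table. The rebuilt total of untreated Δscd6 was above that of the untreated wild type, by a log2 ratio of 0.28. Scaled to equal totals 4 were lower (ARG3, LYS9, LEU1 and ARO3) and none higher, with the shares of all genes on that scaling not given here. ILV6 at 1.26 (adjusted p = 0.070) and THR1 at 0.92 (adjusted p = 0.073) had high values short of the test in the authors' deposited table. In untreated Δsbp1 cells 0 of the 41 genes passed the authors' test, against 1.54% of all genes higher and 0.441% lower, and 3 had an unadjusted p under 0.05. By the authors' deposited table all 7 lysine genes lay below the wild type there, from -0.57 for LYS20 to -0.20 for LYS1, with none past the test. Of the 41 genes 28 lay below 0 there, with a median of -0.145. Of all 6352 genes 3225 did, with a median of -0.006.

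In azide, genes of the set passed as lower against the wild type in either deletion strain. In Δscd6 cells 3 of the 41 genes were lower than in the azide-treated wild type and 0 higher, with 2.28% of all genes lower and 2.03% higher. They were CPA1 (-0.86, adjusted p = 0.0017), LYS20 (-0.79, adjusted p = 0.0080) and SER3 (-0.66, adjusted p = 0.041) in the authors' deposited table. These values share the azide-treated wild type libraries with the azide response of the wild type, in which the same genes were at 0.74, 0.76 and 1.10 by the authors' deposited tables.

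In Δsbp1 cells 18 of the 41 genes were lower than in the azide-treated wild type and 0 higher, where 11.9% of all genes were lower and 9.29% higher. The median of the set was -0.47 by the authors' deposited table, that of all genes -0.02. The branched chain held 6 of the 18: ILV6 (-1.36), ILV1 (-1.20), LEU9 (-1.20), ILV2 (-1.0), ILV3 (-0.78) and BAT1 (-0.73), in the authors' deposited table. LYS4 (-1.22, adjusted p = 4.9e-07), ASN1 (-1.18, adjusted p = 4.8e-05) and ARO2 (-1.11, adjusted p = 0.00087) were of like size in the authors' deposited table. Of the genes that had risen in the wild type, LYS20 was at -0.72 and CPA1 at -0.59, both past the test, and SER3 at -0.37 (adjusted p = 0.20), in the authors' deposited table. ARG1, HIS1, ARO1, TRP3, TRP4, THR1 and THR4 make up the remaining genes. Scaled to equal totals 9 were lower and 1, ARG4, was higher, with the shares of all genes on that scaling not given here.

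**Figure D3:**
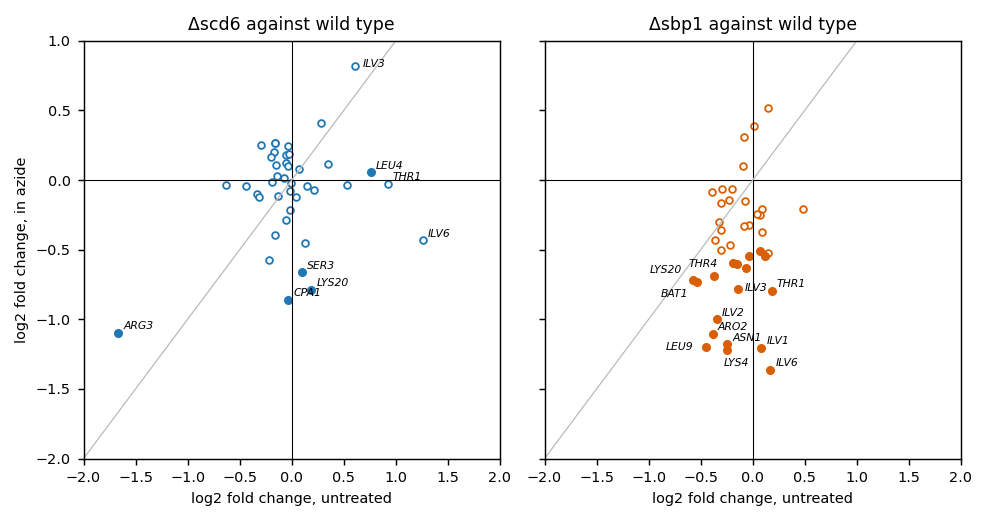
Log2 fold change of each of the 41 genes against the wild type in untreated cells (horizontal axis) and in azide (vertical axis), for Δscd6 on the left and Δsbp1 on the right, from the authors' deposited tables. Filled points passed an adjusted p under 0.05 in at least 1 of the conditions, open points in neither, and the grey line marks equal values; most Δsbp1 points lie under 0 on the vertical axis while their horizontal values lie near 0.

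Whether a deletion altered the azide response was tested as the difference of log2 fold changes, with errors implied by the authors' p-values. For Δscd6 minus wild type 1 gene passed, LYS20, at -0.98 (standard error 0.30, 95% interval -1.56 to -0.39, adjusted p = 0.034 against a normal distribution over 6331 genes). Of all genes 1.94% passed as lower and 2.18% as higher. CPA1 at -0.83 (adjusted p = 0.076) and ILV6 at -1.69 (adjusted p = 0.078) did not pass, and with equal totals LYS20 did not pass either. For Δsbp1 minus wild type 1 gene passed, ILV1, at -1.28 (standard error 0.31, 95% interval -1.88 to -0.68, adjusted p = 0.0038 over 6329 genes), where 1.67% of all genes passed as lower and 0.553% as higher. LYS4 at -0.97 (adjusted p = 0.053) did not pass. The difference was negative in 31 of the 41 genes, with a median of -0.30, and in 3150 of all 6352 genes, with a median of 0.006. Scaled to equal totals the median of the 41 became -0.17, with 28 below 0. That scaling moves every gene of a comparison by the same amount, so the set keeps its distance from the median of all genes. For 39 of the 40 genes that could be tested, the response in Δsbp1 did not pass as different from that of the wild type.

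Between the deletion strains, whose azide responses share no library, 3 genes had a lower log2 change in Δsbp1 than in Δscd6. By the same normal test they were LEU9 at a difference of -1.17 (standard error 0.34, adjusted p = 0.014), ILV1 at -1.05 (0.31, adjusted p = 0.016) and ASN1 at -1.12 (0.35, adjusted p = 0.030). ASN1 had fallen in Δsbp1 and not in Δscd6. Over the 6142 genes tested 4.04% were lower and 1.53% higher. LYS20, which rose in Δsbp1 and not in Δscd6, differed by 0.83 (adjusted p = 0.077) and did not pass. HIS5 could not be tested against the wild type, its change there being too small to imply an error.

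**Figure D4:**
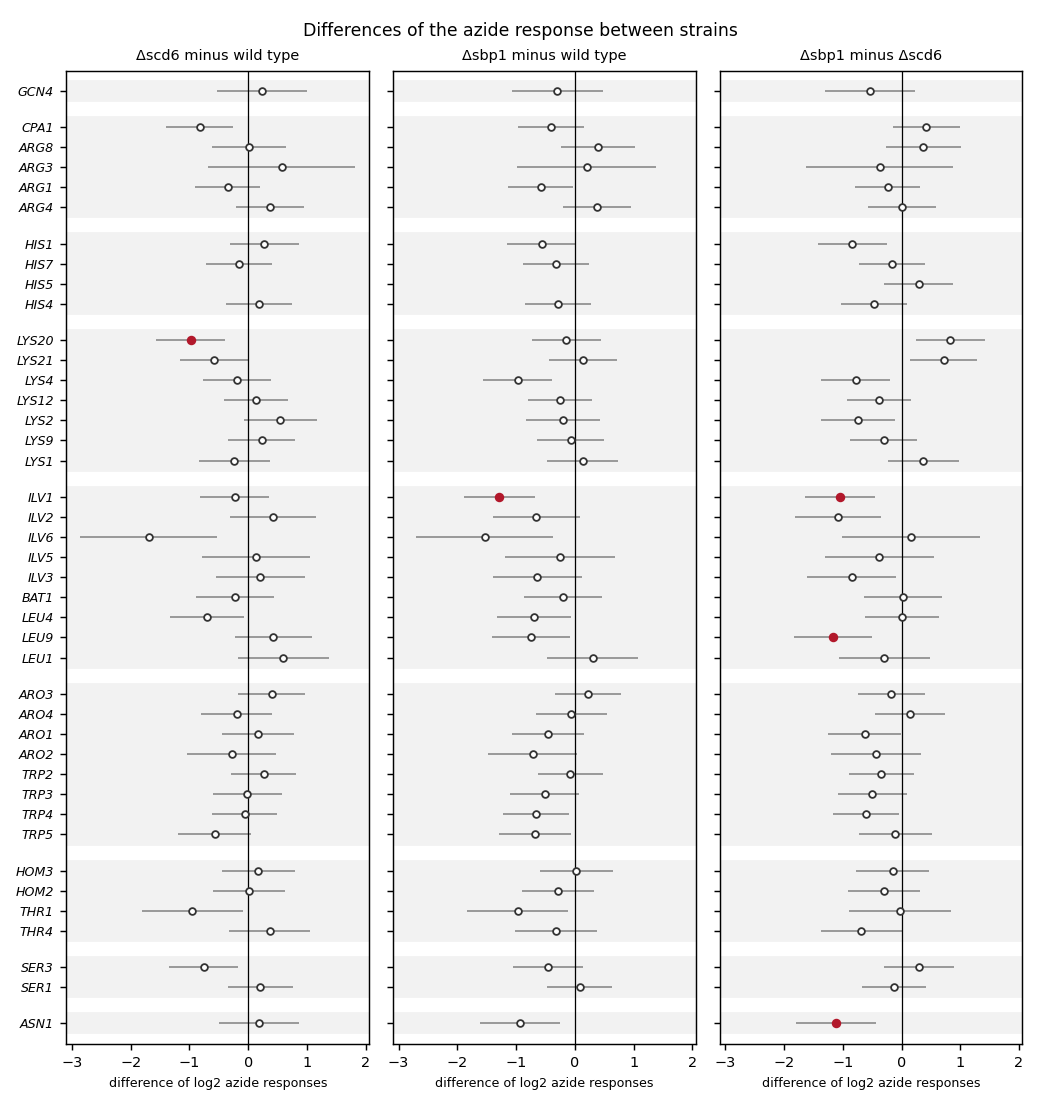
Difference of log2 fold changes with azide (horizontal axis) for each of the 41 genes (vertical axis): Δscd6 minus wild type, Δsbp1 minus wild type and Δsbp1 minus Δscd6. Filled points passed an adjusted p under 0.05, bars are 95% intervals, and HIS5 is missing from the first pair of panels; LYS20, then ILV1, then ILV1, LEU9 and ASN1 are the filled points.

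Abundance moved with the azide response over all genes in each strain, and length in the wild type and Δsbp1; their part in these falls was not tested. The 41 genes are abundant, with a median of 3029 normalised counts against 589 for all genes. Across all genes the azide change had a Spearman correlation with the untreated wild type level of -0.45, -0.44 and -0.47 in the wild type, Δscd6 and Δsbp1, a description over genes that are not independent and whose level enters the wild type change. Among 1033 other genes within the middle range of the set, from 1497 to 6944 normalised counts, 30.6% fell in the wild type, 33.5% in Δscd6 and 42.6% in Δsbp1. Of the 21 genes of the set in that range 52.4%, 47.6% and 66.7% fell. Above that range 30.0% of the 10 genes of the set fell in the wild type, near the 29.2% of 332 other genes, with median changes of -0.22 and -0.38. In Δscd6 5 of those 10 and 37.3% of the others fell, with medians of -0.58 and -0.57, and in Δsbp1 80.0% and 43.1%, with medians of -1.01 and -0.51. Under the range 30.0%, 30.0% and 40.0% of 10 genes fell, against 17.8%, 16.4% and 22.8% of the others. Against the azide-treated wild type, 47.6% of those 21 and 18.6% of the other genes in the range were lower in Δsbp1. The 9 members with a gene of at least 1800 bases had median changes of -0.83, -0.74 and -1.33, lower than the 16 under 1200 bases at -0.34, -0.38 and -0.61; over all genes the long ones were at -0.28, -0.07 and -0.35 and the short ones at 0.075, -0.01 and 0.17. The Spearman correlation of the azide change with length over 5764 genes was -0.20, -0.05 and -0.24, again a description.

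**Figure D5:**
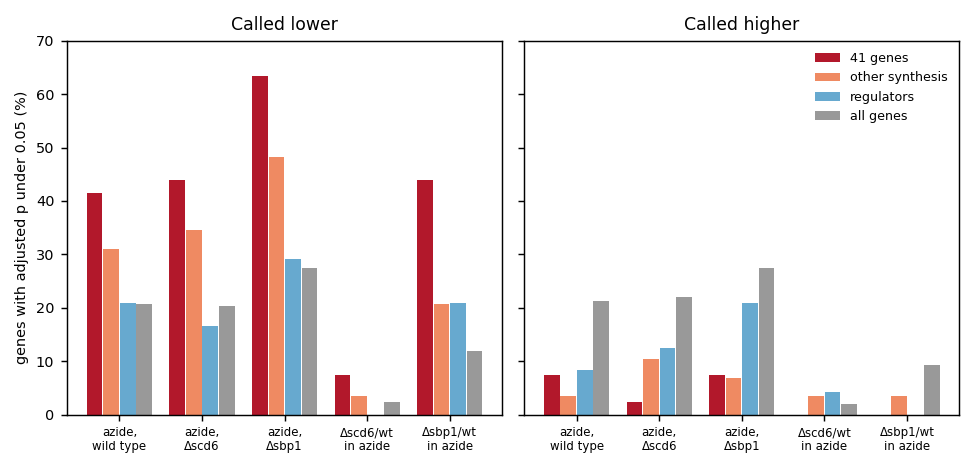
Percentage of genes with an adjusted p under 0.05 (vertical axis), lower on the left and higher on the right, for azide in each strain and for either deletion against the wild type in azide. Bars stand for the 41 genes, 29 other synthesis genes, 24 regulators and all genes; the share of the 41 that fell with azide stands at 41.5%, 43.9% and 63.4% against 20.6%, 20.4% and 27.4% of all genes.

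Responses of genes with and without the Gcn4 site overlapped. The 26 genes with the full site had median changes with azide of -0.33, -0.42 and -0.72 in the wild type, Δscd6 and Δsbp1, and the 14 enzyme genes without it -0.40, -0.57 and -0.89. The full site was upstream of 8 of the 13 genes that fell in all 3 strains (61.5%) and of 18 of the other 28 (64.3%). Other letters searched on both strands were CCGNNNNCGG of the leucine pathway regulator Leu3, in 7 of the 41 windows (17.1%) against 3.22% of all genes, and TCCNNNGGA of the lysine pathway regulator Lys14, also in 7 against 6.10%. The general stress element AGGGG was in 13 (31.7%) against 34.5% of all genes. ILV5, ILV2, LEU9, LEU1, BAT1, HOM2 and ASN1 held the Leu3 letters, a group that includes genes that fell in every strain and genes that did not.

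Of 29 other genes of amino acid synthesis 9 fell and 1 rose in the wild type, 10 and 3 in Δscd6 and 14 and 2 in Δsbp1, by the authors' deposited tables. The falls are 31.0%, 34.5% and 48.3% of them, against 20.6%, 20.4% and 27.4% of all genes, and the rises 3.45%, 10.3% and 6.90%, against 21.3%, 22.1% and 27.5%. The largest rise in each strain was that of ARO9, an aromatic aminotransferase of amino acid breakdown, at 1.41, 1.57 and 1.60 in the authors' deposited tables, followed in Δscd6 and Δsbp1 by TYR1, prephenate dehydrogenase, at 0.83 and 1.09. Among the largest falls in the authors' deposited tables were those of SHM2, cytosolic serine hydroxymethyltransferase, in the wild type (-0.89), Δscd6 (-1.27) and Δsbp1 (-1.79), and of GDH3, a glutamate dehydrogenase, in Δscd6 (-1.32).

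Of 24 regulators of Gcn4 and of single pathways 5 fell and 2 rose in the wild type, 4 and 3 in Δscd6 and 7 and 5 in Δsbp1, by the authors' deposited tables. The falls, at 20.8%, 16.7% and 29.2% of them, are near the 20.6%, 20.4% and 27.4% of all genes, and the rises came to 8.33%, 12.5% and 20.8% against 21.3%, 22.1% and 27.5%. GCN2, the eIF2 kinase, and GCD1, a subunit of the exchange factor eIF2B, fell most in the wild type (-1.39 and -1.21), the Gcn2 inhibitor YIH1 and the activator BAS1 in Δscd6 (-1.19 and -1.0), and BAS1 and GCD1 in Δsbp1 (-1.74 and -1.69), in the authors' deposited tables. ARG82, an inositol polyphosphate kinase of the arginine control complex, had the largest rise in each strain (1.35, 0.83 and 1.34) in the authors' deposited tables. The second largest in the authors' deposited tables were those of ARG80 (1.10), a partner of that complex, in the wild type, of LYS14 (0.62) in Δscd6 and of CHA4 (0.81), an activator of serine and threonine breakdown, in Δsbp1.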

How the data were processed

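RNA of 12 libraries in 6 groups of strain and treatment was made into Illumina libraries, per the labels' protocols. The submitters' processing notes name STAR 2, Picard, featureCounts and edgeR, with no roles. Build, annotation, counting strand, normalisation and test are not given. The data were 7 comparison tables of 6352 genes. Per the file headers, the deposited columns are a mean normalised count (a signal, identical in all 7), a fold change as a linear ratio, its log2, the p-value and the adjusted p-value. That last column equals a Benjamini-Hochberg adjustment of the deposited p-value over all genes, within 4.6e-08. Depth per library is unknown, so no interval that needs it is given.

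The members and lists were chosen with earlier results of these data known. All 41 members were found by name in every table, with no filter on low values. Besides them, the text names in each azide comparison the 2 largest rises and 2 largest falls past the threshold among other synthesis genes and among regulators. Of 31 other synthesis genes listed, 29 were found by name. A gene that this rule would name is not reported here.

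Group levels were rebuilt by taking the mean count as the plain mean over 12 libraries. The implied standard error divides a log2 fold change by the normal quantile belonging to its p-value; 6 of 287 values have none, their change being under 0.02. For a difference from the wild type response, variances were summed over the azide responses and again over the comparisons with wild type, and the larger sum was used. Differences were adjusted by Benjamini-Hochberg over all genes with such an error. The procedure was tested on simulated data. Upstream windows of 500 bases and coding sequences came from RefSeq R64. Software was Python 3.11.15 with scipy 1.17.1, pandas 2.3.3, numpy 2.4.6 and, for plots, matplotlib 3.10.9.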

Additional observations from a re-analysis of the deposited data

Results flagged for a closer look

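The azide response of 4 of the 41 genes differed between strains in at least 1 of 3 tests of the difference itself, over all genes. The share of all genes over the 3 tests together is not given here. Against the wild type 1 of 40 genes passed in either deletion strain (2.5%), near the share of all genes, which was 1.94% lower and 2.18% higher for Δscd6 and 1.67% and 0.553% for Δsbp1. Between the deletion strains 3 of 41 passed (7.32%), where 4.04% of all genes were lower and 1.53% higher. LYS20 responded less in Δscd6 than in the wild type, by -0.98 on the log2 scale (adjusted p = 0.034, normal test), having risen in the wild type and not passed in Δscd6. It shares long stretches with LYS21, whose difference was -0.58 (adjusted p = 0.24). ILV1 fell further in Δsbp1 than in the wild type, by -1.28 (adjusted p = 0.0038), and further than in Δscd6, by -1.05 (adjusted p = 0.016). LEU9 fell further in Δsbp1 than in Δscd6, by -1.17 (adjusted p = 0.014). ASN1, which fell in Δsbp1 and not in Δscd6, differed by -1.12 (adjusted p = 0.030). Against the wild type the Δsbp1 differences of LEU9 (-0.75, adjusted p = 0.25) and ASN1 (-0.93, adjusted p = 0.14) did not pass. At an adjusted p under 0.01 only the ILV1 difference between Δsbp1 and the wild type passed. With equal totals the LYS20 difference did not pass.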

How the results depend on the processing

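No paired analysis was possible because the tables hold no values per library, and leaving out each replicate was not run for the same reason. Members called numbered 20, 19 and 29 for azide in the wild type, Δscd6 and Δsbp1. With a log2 change of at least 1 required as well they numbered 5, 3 and 16, and, against the wild type, 1 in untreated Δscd6, 0 in azide-treated Δscd6 and 7 in azide-treated Δsbp1. At an adjusted p under 0.01 they numbered 0 in untreated Δscd6, 7 in azide-treated Δsbp1, 0 for the Δscd6 minus wild type difference and 0 for Δsbp1 minus Δscd6. A mean count of at least 100, which drops ARG3, left 1 in untreated Δscd6. Scaled to equal totals, an alternative added for the differences after seeing the data, they numbered 9 for azide in Δscd6, 4 in untreated Δscd6, 10 in azide-treated Δsbp1, 0 for Δscd6 minus wild type and 6 for Δsbp1 minus Δscd6, and the azide medians became -0.18 in the wild type, -0.10 in Δscd6 and -0.52 in Δsbp1. Under equal totals the median of all genes moves by the same amount as that of the set, and the shares of all genes called are not given here. With the variance from both comparisons with the wild type, 2 genes, LYS4 and ILV1, passed for Δsbp1 minus wild type. The other alternatives kept each count within 1.5 times. Of 287 single gene values, centring on the median gene kept 284 on their side of the threshold and equal totals 240, with 33 losing and 14 gaining a call; 0 called values changed sign. The causes were not tested. With 2 libraries a group, an implied standard error near 0.22 limits which changes pass.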
